A study of Mus musculus with 11 samples.

Results

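The IL-6 cytokine family, the transcription factor Stat3 and its feedback inhibitor Socs3 were followed through the pancreas and epididymal adipose tissue of mice with obesity-related alcohol-induced acute pancreatitis (OA-AP). The 10 genes were taken by symbol from the deposited count tables, where they were Il6, Osm, Lif and Il11 (cytokines), Il6ra, Osmr and Lifr (receptor chains), Il6st (the shared receptor chain gp130), Stat3 and Socs3. All 10 were listed in both tissues, among 54532 genes in the pancreas table and 46078 in the adipose table. The data were bulk RNA-seq counts from 11 libraries of male wild type C57BL/6 mice aged 16 weeks, of the C57BL/6J substrain by the study's methods. Control mice (2 pancreas and 3 adipose libraries) ate chow with 10 kcal% fat and received saline. OA-AP mice (3 pancreas and 3 adipose libraries) ate a diet with 60 kcal% fat for 12 weeks and then received 2 intraperitoneal injections of ethanol at 2 g/kg, spaced 1 h apart. Tissue was taken 12 h after the first injection. Diet, ethanol and pancreatitis differed together between the groups and cannot be told apart, and none of the libraries analysed here came from a mouse given the herbal decoction CQCQD. The labels do not say that every library came from a separate mouse, so the tests measure the spread between these libraries.

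Cytokines of this family bind a receptor complex that contains gp130, with IL-6 and IL-11 using their own alpha chains and oncostatin M and LIF pairing gp130 with OSMR or LIFR. The complex activates Janus kinases, which phosphorylate STAT3, and STAT3 then enters the nucleus and drives transcription of acute phase genes and of Socs3. The SOCS3 protein binds gp130 and the kinases and shuts the signal down, and this circuit is well known in the acute phase response and in inflamed pancreas and fat. mRNA counts report the transcripts of these components and not cytokine protein or STAT3 phosphorylation.

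Values are CPM, a library's counts on a gene relative to its total, scaled with TMM factors. A gene was called when the Benjamini-Hochberg adjusted p of edgeR's quasi-likelihood test over all genes tested in that tissue was under 0.05 and the fold change was at least 1.5. Libraries held 14188832 to 17238919 counts in the pancreas and 20825177 to 27928097 in adipose tissue, so that 1 count was worth 0.0522 to 0.0996 CPM and 0.0340 to 0.0518 CPM, respectively. Acinar genes took 81.9% and 83.4% of the control pancreas counts and 65.5% to 68.1% in OA-AP, and the adipocyte list was led by Fabp4 in adipose tissue, so both tissues carried their defining markers. Pancreas OA-AP 3 stood apart in the summed CPM of 10 neutrophil markers, at 108 against 15.0 and 4.63 in OA-AP 1 and 2 and 1.97 and 2.89 in the controls. Adipose control 2 held 1.13% acinar counts against 0.00108% to 0.00208% in the other adipose libraries. In bulk tissue, a change in the number of cells of a type and a change in RNA per cell cannot be told apart.

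**Figure D1:**
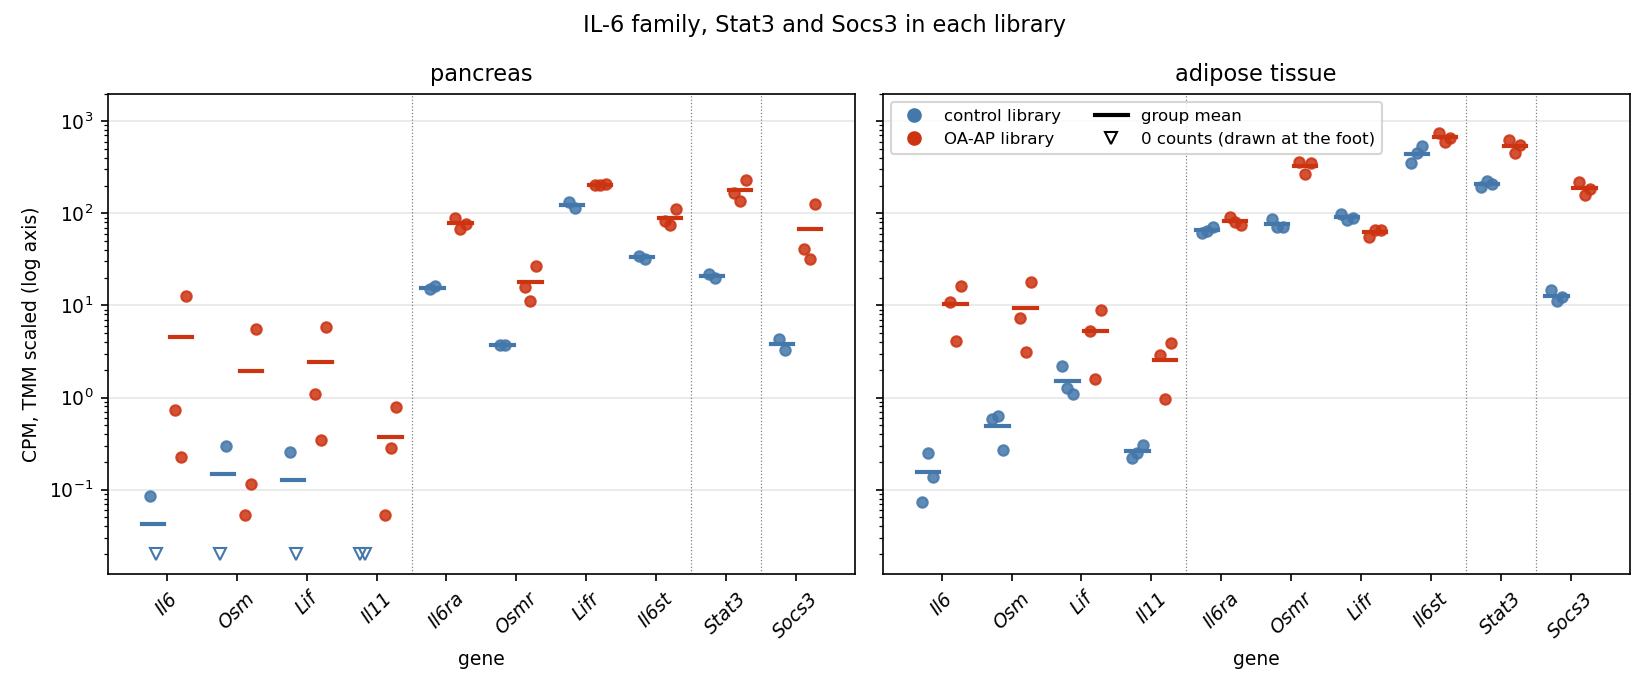
TMM-scaled CPM on a log axis for the 10 genes in each control (blue) and OA-AP (red) library of the pancreas (left) and adipose tissue (right). Bars are group means, open triangles are libraries with 0 counts, and dotted lines separate cytokines, receptor chains, Stat3 and Socs3. Stat3 and Socs3 in OA-AP lay above every control library in both tissues, while Lifr lay above the controls in the pancreas and below them in adipose tissue.

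The promoters of the cytokine Il6, the transducer Stat3 and the inhibitor Socs3 are shown because these 3 genes stand for the input, the carrier and the brake of the circuit and their transcripts were all higher in OA-AP adipose tissue. The sequences are the 250 bases upstream of the RefSeq start on GRCm38.p6, written 5′ to 3′ on the strand of the gene, at chr5:30012864-30013113 (plus strand), chr11:100939541-100939790 (minus strand) and chr11:117969367-117969616 (minus strand). The Socs3 window lies inside the longer Socs3 gene span of the count table, whose start is further upstream. Capitals mark matches to a STAT motif (TTCNNNGAA), an AP-1 motif (TGANTCA) or an NF-kB motif (GGGNNTTTCC), searched on both strands.
Il6: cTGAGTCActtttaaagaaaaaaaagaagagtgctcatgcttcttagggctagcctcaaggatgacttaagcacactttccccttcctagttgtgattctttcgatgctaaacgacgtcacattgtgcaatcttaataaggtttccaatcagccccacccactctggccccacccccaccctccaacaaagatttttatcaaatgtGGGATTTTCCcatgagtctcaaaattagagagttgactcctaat
Stat3: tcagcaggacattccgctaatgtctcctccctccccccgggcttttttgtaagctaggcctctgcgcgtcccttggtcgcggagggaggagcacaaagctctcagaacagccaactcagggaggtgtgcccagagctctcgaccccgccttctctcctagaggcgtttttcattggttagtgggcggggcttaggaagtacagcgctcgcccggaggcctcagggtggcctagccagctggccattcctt
Socs3: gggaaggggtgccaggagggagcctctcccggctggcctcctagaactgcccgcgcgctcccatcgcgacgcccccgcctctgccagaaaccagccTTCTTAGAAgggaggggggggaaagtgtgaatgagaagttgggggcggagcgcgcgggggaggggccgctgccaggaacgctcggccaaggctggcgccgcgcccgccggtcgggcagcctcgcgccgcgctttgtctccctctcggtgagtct
The Socs3 window held a STAT match, TTCTTAGAA, 154 to 146 bases before the start. The Il6 window held an AP-1 match at 249 to 243 bases and an NF-kB match at 44 to 35 bases before the start, and the Stat3 window held none of the 3 motifs. RefSeq windows of 300 bases, which add 50 bases after the start, were matched for 9 of the 10 genes (11 windows), and the STAT motif was found in 1 of those genes. Over all 32851 mouse windows of that length, 8.30% held the STAT motif, 7.81% the AP-1 motif and 1.63% the NF-kB motif. The other AP-1 matches were in the windows of Osmr (4 to 10 bases after the start), Lif (228 to 222 bases before it) and Il11 (98 to 92 bases before it). The motifs do not overlap in these windows. A match describes letters and was not measured as a binding site.

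The cytokine transcripts were scarce in control tissue, and Il6, Osm and Il11 were called higher in OA-AP adipose tissue. Il6 (ENSMUSG00000025746, chr5:30013114-30019981), which encodes the founding cytokine of the family, was at 0.0737, 0.251 and 0.136 CPM in the adipose controls and at 10.8, 4.08 and 16.3 CPM in OA-AP 1 to 3. The groups did not overlap, and OA-AP 2 was the lowest of the OA-AP libraries. Il6 was 66.7-fold higher in OA-AP (log2 fold change 6.06, SE 0.69, adjusted p = 0.00156). Osm (chr11:4236420-4241026), which encodes oncostatin M, a cytokine made by neutrophils and macrophages, was at 0.590, 0.628 and 0.272 CPM in the controls and at 7.25, 3.12 and 17.9 CPM in OA-AP. Osm rose 19.0-fold without overlap of the groups (log2 4.24, SE 0.74, adjusted p = 0.00631), and the log2 fold change was 3.38 without OA-AP 3. Il11 (chr7:4772373-4782857), whose product acts on stromal cells, was at 0.221, 0.251 and 0.306 CPM in the controls and at 2.90, 0.961 and 3.89 CPM in OA-AP. Il11 rose 9.68-fold, again without overlap (log2 3.27, SE 0.56, adjusted p = 0.00511). Lif (chr11:4257557-4272514), which encodes leukaemia inhibitory factor, was at 2.21, 1.26 and 1.09 CPM in the controls and at 5.33, 1.59 and 8.98 CPM in OA-AP. OA-AP 2 fell within the control range for Lif, and the gene was not called (log2 1.79, SE 0.61, adjusted p = 0.0588). The Lif estimate was 1.18 without OA-AP 3. Without OA-AP 2, Lif was called (log2 2.23, adjusted p = 0.00519), as it was by DESeq2 with all libraries (adjusted p = 0.00639). The order of the OA-AP libraries was the same for all 4 cytokines, with OA-AP 3 highest and OA-AP 2 lowest.

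Of the cytokines in adipose tissue, Il6, Osm and Il11 were higher in the same libraries as the neutrophil markers, and Lif was not called. The neutrophil markers summed to 194, 188 and 210 CPM in OA-AP 1 to 3, and OA-AP 2, the lowest of these, held 1.59 CPM of Lif, within the Lif control range. The summed CPM of the 10 neutrophil markers was 17.5 to 36.1 in the adipose controls and 188 to 210 in OA-AP, and 6 of the 7 markers tested were higher, with S100a9 the most abundant. The 10 macrophage markers summed to 1118 to 1431 CPM in the controls and 1364 to 1834 CPM in OA-AP, with 4 of 10 tested higher and 1 lower and Lyz2 the most abundant. None of either list was at 0 in every library. The part of these cells in the cytokine levels was not tested.

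In the pancreas the cytokines were near the limit of counting in the controls, and 1 OA-AP library carried most of their counts. Il6 had 1 and 0 counts in the controls and 14, 4 and 241 counts in OA-AP 1 to 3, or 0.734, 0.229 and 12.6 CPM in OA-AP. Every OA-AP library was above both controls, but the values spanned a wide range and Il6 was not called (log2 6.39, SE 3.15, 95% interval -1.86 to 14.6, adjusted p = 0.188). DESeq2 called it (adjusted p = 0.0307). Lif had 3 and 0 counts in the controls and 21, 6 and 111 counts in OA-AP, with CPM of 0.257 and 0 against 1.10, 0.343 and 5.80. Lif was not called either (log2 4.07, SE 1.74, adjusted p = 0.124), although it was without OA-AP 2 (adjusted p = 0.0324). With a single control left, neither gene was called and the estimates moved widely, to 9.22 (without control 1) or 5.61 (without control 2) on the log2 scale for Il6 and to 8.32 or 3.20 for Lif.

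Osm and Il11 were below the count filter in the pancreas and were not tested. Osm had 0 and 3 counts in the controls and 1, 2 and 107 counts in OA-AP, so that the groups overlapped and only OA-AP 3 (5.59 CPM) stood above the controls. Pooled over libraries, the Osm ratio of OA-AP to control was 14.3 with a 95% counting interval of 4.76 to 70.3, which leaves out the spread between libraries. Il11 had 0 counts in both controls and 1, 5 and 15 counts in OA-AP, at least 2.73-fold higher when 3 counts over the control group are taken as the floor. Intervals and floors of this kind cover counting error only, since the reads carry no molecular identifiers.

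OA-AP 3, the library highest for all 4 cytokines in the pancreas, was also highest for the neutrophil list (108 summed CPM) and the macrophage list (130 against 75.6 and 76.9 in OA-AP 1 and 2 and 87.0 and 44.4 in the controls). Of the 8 neutrophil and 10 macrophage markers tested in the pancreas, 0 and 1 were called, the latter lower in OA-AP. Their part in the cytokine counts was not tested. Without OA-AP 3, and likewise without OA-AP 1, Il6 and Lif no longer passed the count filter.

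**Figure D2:**
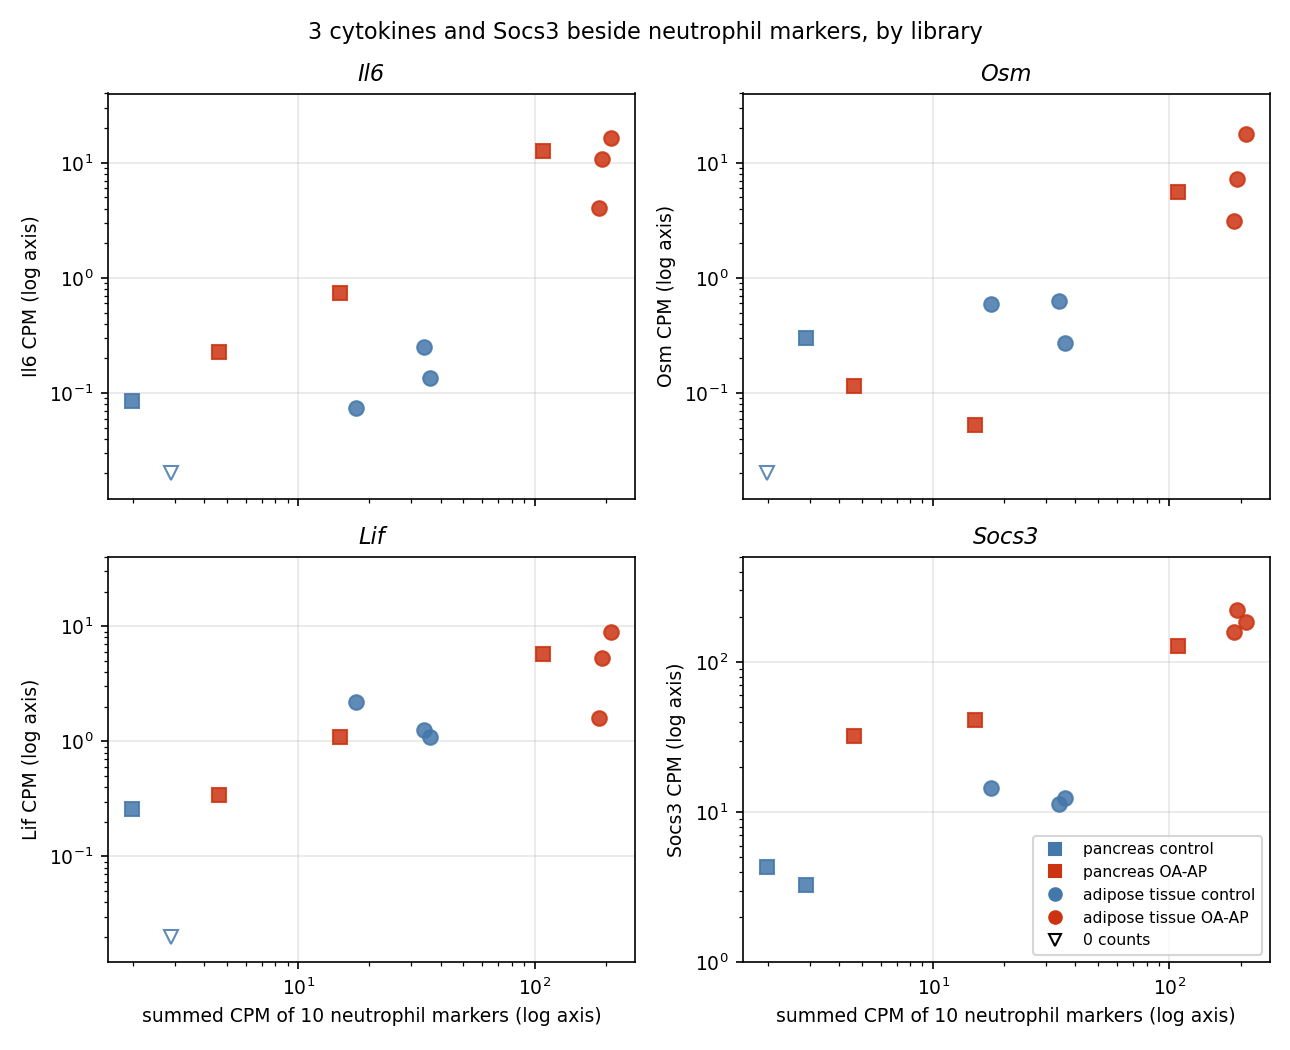
CPM of Il6, Osm, Lif and Socs3 (log axis) against the summed CPM of 10 neutrophil markers (log axis) in each library, with squares for pancreas, circles for adipose tissue, blue for control, red for OA-AP and open triangles for 0 counts. Pancreas OA-AP 3, at 108 on the neutrophil axis, lies apart from the other pancreas libraries and nearer to the adipose OA-AP libraries for all 4 genes.

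In the pancreas, 6 of the 8 members tested were called and all 6 were higher in OA-AP. Of the 12884 genes tested there, 29.8% were called and 16.2% were called higher. The 6 were the receptor chains Il6ra, Osmr, Lifr and Il6st together with Stat3 and Socs3, and their calls held without OA-AP 3 (6 of 6 tested). With a single control left, 4 (without control 1) or 3 (without control 2) were called. Over the 8 members tested the median of the log2 fold changes was 2.70, beside 0.04 for all genes tested. That median includes Il6 and Lif, which were not called and passed the count filter with the help of the OA-AP libraries, where they were higher. With 10 counts required in every library, Il6 and Lif were filtered out, and the 6 members left were all called.

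Il6ra (chr3:89864059-89913196), the alpha chain that binds IL-6, showed the clearest receptor change in the pancreas. It was at 14.9 and 16.1 CPM in the controls and at 89.4, 67.6 and 75.9 CPM in OA-AP, far outside the control range in every library. Il6ra rose 5.00-fold (log2 2.32, SE 0.17, adjusted p = 0.000121). Osmr (chr15:6813577-6874969), the oncostatin M receptor chain, was at 3.69 CPM in both controls and at 15.8, 11.3 and 26.8 CPM in OA-AP. Osmr rose 4.88-fold (log2 2.29, SE 0.40, adjusted p = 0.00565), with OA-AP 3 highest, and lost its call with either control left out (adjusted p = 0.0673 and 0.0675). Il6st (chr13:112464070-112510086), which encodes gp130, was at 34.8 and 31.6 CPM in the controls and at 81.8, 74.2 and 112 CPM in OA-AP. Il6st rose 2.69-fold without overlap (log2 1.43, SE 0.20, adjusted p = 0.00150). Lifr (chr15:7090614-7197489), the LIF receptor chain, was at 132 and 115 CPM in the controls and at 201, 202 and 207 CPM in OA-AP. The 3 OA-AP values lay close together and above both controls, and Lifr rose 1.65-fold (log2 0.72, SE 0.13, adjusted p = 0.00418), although without control 2 it was not called (adjusted p = 0.0795).

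The sum of the adipocyte list was higher in the same OA-AP pancreas libraries, although 1 gene made most of it. The 10 markers summed to 54.7 and 70.9 CPM in the controls and to 202, 160 and 291 CPM in OA-AP 1 to 3. Pnpla2 made 54.8% of the summed CPM over the pancreas libraries, and Retn was at 0 in every library. Only 4 of the 10 markers passed the count filter, and 3 of those were higher. Adipose libraries held 39024 to 49903 summed CPM of the same list. The part of adipocyte RNA in the pancreas receptor levels was not tested.

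In adipose tissue, 6 of the 10 members were called and all 6 were higher, namely Il6, Osm, Il11, Osmr, Stat3 and Socs3. Of the 15839 genes tested there, 25.1% were called and 12.1% were called higher. The count was also 6 without control 2, the library with acinar RNA. With 10 counts required in every library, Il6, Osm and Il11 were filtered out for their low control counts. Of the 7 members left, 3 were called. Il6, Osm and Il11 passed the filter used here with the help of the OA-AP libraries, where they were higher. The median log2 fold change of the 10 members was 1.95, beside -0.01 for all genes tested.

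Among the receptor chains in adipose tissue, Osmr alone was called. Osmr was at 85.7, 70.7 and 70.5 CPM in the controls and at 361, 270 and 350 CPM in OA-AP, a 4.30-fold rise (log2 2.11, SE 0.15, adjusted p = 0.000347). Il6ra was at 61.4, 64.2 and 71.0 CPM in the controls and at 90.9, 80.5 and 75.1 CPM in OA-AP. The Il6ra groups did not overlap, but the 1.25-fold difference was under the fold limit (log2 0.32, SE 0.10, adjusted p = 0.0463). Il6st was at 349, 449 and 540 CPM in the controls and at 743, 595 and 662 CPM in OA-AP, a 1.49-fold difference just under the limit (log2 0.58, SE 0.18, adjusted p = 0.0431). It was called without control 3 (log2 0.74, adjusted p = 0.0332) and without OA-AP 2 (log2 0.66, adjusted p = 0.0346). Lifr ran the other way, at 98.2, 85.5 and 89.7 CPM in the controls and at 55.5, 66.3 and 66.4 CPM in OA-AP. Every OA-AP library was below every control for Lifr, and the log2 fold change of -0.54 (SE 0.10, adjusted p = 0.00751) was under the fold limit. With library totals in place of TMM factors, Lifr was called lower (log2 -0.69, adjusted p = 0.00407). The 8 fibroblast markers, led by Dcn, summed to 3557 to 4435 CPM in the adipose controls and 2179 to 2804 CPM in OA-AP, with 5 of 8 lower. The 7 B lymphocyte markers, led by Ighm, summed to 124 to 692 CPM and 29.4 to 127 CPM, with 6 of 7 lower. The 9 T lymphocyte markers summed to 8.98 to 20.3 CPM and 4.76 to 8.07 CPM, with 3 of 8 tested lower. None of these markers was at 0 in every library, and their part in the receptor levels was not tested.

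Stat3 (ENSMUSG00000004040, chr11:100885098-100939540), the transcription factor that carries the signal and is itself a STAT3 target, rose in both tissues. In the pancreas it was at 22.0 and 20.0 CPM in the controls and at 165, 134 and 233 CPM in OA-AP, and the lowest OA-AP library was far above the highest control. Stat3 rose 8.44-fold there (log2 3.08, SE 0.26, adjusted p = 0.000252) and by 2.78 on the log2 scale without OA-AP 3 (adjusted p = 9.62e-10). In adipose tissue Stat3 was at 195, 222 and 210 CPM in the controls and at 620, 450 and 548 CPM in OA-AP. That was a 2.57-fold rise (log2 1.36, SE 0.15, adjusted p = 0.00107), again without overlap.

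Socs3 (ENSMUSG00000053113, chr11:117966079-117970047), which encodes the inhibitor that STAT3 induces, was at 14.6, 11.3 and 12.4 CPM in the adipose controls and at 221, 159 and 184 CPM in OA-AP. The spread within each adipose group was small beside the gap between them. Socs3 rose 14.7-fold (log2 3.87, SE 0.17, adjusted p = 0.000179), and its p ranked 3 among the 15839 genes tested. In the pancreas Socs3 was at 4.29 and 3.29 CPM in the controls and at 41.0, 32.2 and 128 CPM in OA-AP. OA-AP 3 was the highest by far, and Socs3 rose 17.6-fold (log2 4.14, SE 0.86, adjusted p = 0.0236). Without OA-AP 3 the log2 fold change was 3.22 (adjusted p = 6.84e-09). The call was lost with either control left out (adjusted p = 0.105 and 0.115) and with no filter on low counts (adjusted p = 0.115).

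**Figure D3:**
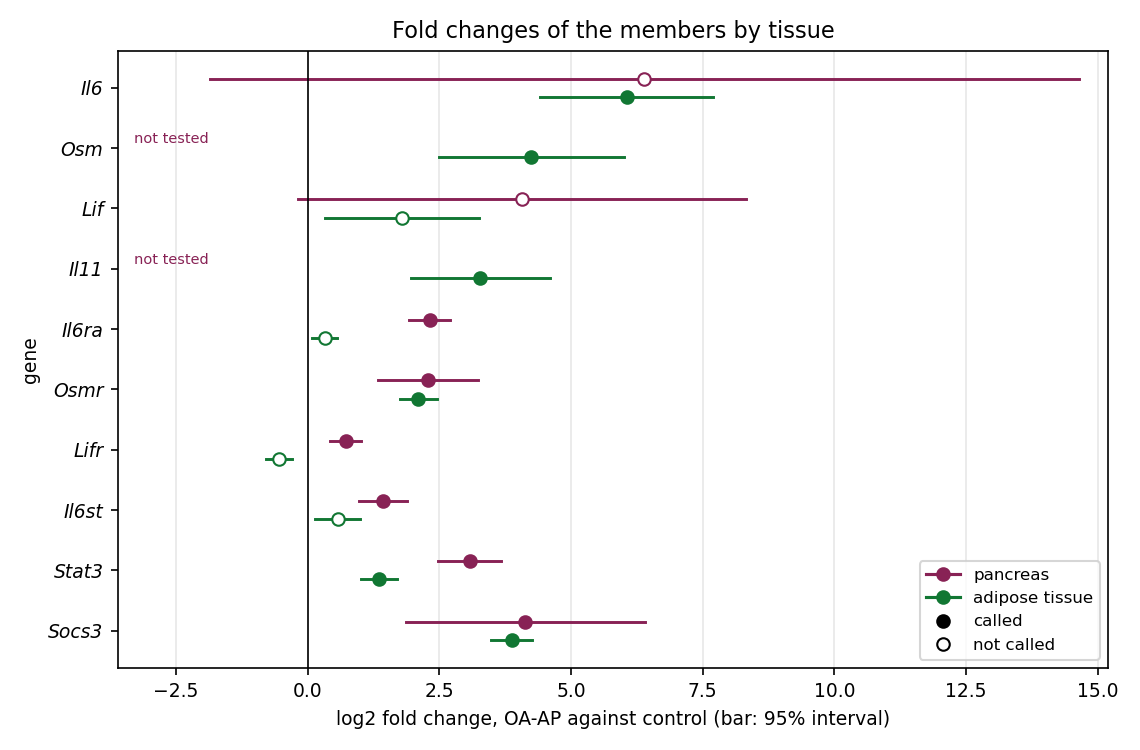
Log2 fold change of OA-AP against control for 8 genes in the pancreas (purple; Osm and Il11 were not tested) and 10 in adipose tissue (green), with 95% intervals from edgeR's quasi-likelihood fit. Filled points were called and open points were not. The estimates for Osmr were 2.29 in the pancreas and 2.11 in adipose tissue, those for Il6ra 2.32 and 0.32, and the pancreas interval of Il6 runs from -1.86 to 14.6.

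Whether the tissues responded to different degrees was tested for the 8 members tested in both, as a tissue by condition term over all 11 libraries. Of 17046 genes tested, 20.6% were called, and 4 of the 8 members were, each with the smaller or opposite change in adipose tissue. For Il6ra the adipose log2 fold change minus the pancreas one was -2.01 (SE 0.19, adjusted p = 6.26e-05). For Stat3 it was -1.73 (SE 0.29, adjusted p = 0.00166), with control levels of 209 ± 13.4 CPM (SD, n = 3) in adipose tissue and 21.0 ± 1.42 CPM (SD, n = 2) in the pancreas. For Lifr, which was higher in the OA-AP pancreas and lower in OA-AP adipose tissue, it was -1.27 (SE 0.18, adjusted p = 0.000561). The Il6st difference of -0.86 (SE 0.28, adjusted p = 0.0497) was at the limit of the call and did not pass with 8 of the 11 libraries left out in turn (adjusted p = 0.0656 to 0.179), pancreas OA-AP 3 among them (-0.67, adjusted p = 0.0741).

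The other 4 differences were not called. Those of Osmr (-0.20, 95% interval -1.13 to 0.74, adjusted p = 0.808) and Socs3 (-0.28, interval -1.91 to 1.36, adjusted p = 0.852) had intervals that include changes of more than 1.5-fold, and their signs turned without pancreas OA-AP 3 (0.22 and 0.60). The intervals of Il6 (-11.7 to 10.6) and Lif (-6.93 to 2.23) were too wide to compare the tissues at these counts.

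Levels per length placed the genes on 1 scale, in CPM per kb of the deposited gene length. In control pancreas the order of group means ran from Lifr (11.5) through Il6st (2.99), Stat3 (2.21), Il6ra (1.80) and Socs3 (1.31) to Osmr (0.304), with each cytokine at or below 0.0658. In OA-AP pancreas Socs3 (23.2, libraries 11.1 to 44.1), Lifr (18.9, 18.7 to 19.2) and Stat3 (18.6, 14.1 to 24.4) overlapped at the top. Il6ra (8.98) and Il6st (8.04) followed and overlapped as well. Osmr (1.48) and Il6 (1.86, libraries 0.0941 to 5.18) came below them.

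In control adipose tissue Il6st (40.2) stood above Stat3 (21.9), Lifr (8.46), Il6ra (7.58), Osmr (6.25) and Socs3 (4.41), and the Lifr and Il6ra libraries overlapped. In OA-AP adipose tissue Socs3 (65.0, libraries 55.0 to 76.4), Il6st (60.1, 53.6 to 67.0) and Stat3 (56.6, 47.2 to 65.1) overlapped at the top. Osmr (27.0) then stood above Il6ra (9.51) and Lifr (5.82). The cytokines had the lowest group means, with Il6 at 4.28, Osm at 4.15, Il11 at 1.28 and Lif at 1.22. Il6 and Osm overlapped Lifr, since OA-AP 3 held 6.73 of Il6 and 7.88 of Osm against 6.16 of Lifr.

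Ratios of paired genes within a library do not depend on the scaling between libraries. The log2 ratio of Socs3 to Stat3 counts in adipose tissue was -3.74, -4.29 and -4.08 in the controls and -1.49, -1.50 and -1.58 in OA-AP. The OA-AP libraries were nearly alike and all above the controls, a difference of 2.51. In the pancreas the same ratio was -2.35 and -2.59 in the controls and -2.01, -2.06 and -0.87 in OA-AP, a difference of 0.82 that fell to 0.44 without OA-AP 3.

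The log2 ratio of Osmr to Lifr counts was -0.20, -0.27 and -0.35 in the adipose controls and 2.70, 2.03 and 2.40 in OA-AP. It changed sign from control to OA-AP, so that Osmr counts exceeded Lifr counts in every OA-AP adipose library. In the pancreas it was -5.14 and -4.95 in the controls and -3.67, -4.16 and -2.95 in OA-AP, and Lifr counts exceeded Osmr counts throughout. The log2 ratio of Il6ra to Il6st counts rose from -1.22 and -0.97 to 0.13, -0.13 and -0.56 in the pancreas. In adipose tissue it was -2.51, -2.80 and -2.93 in the controls and -3.03, -2.88 and -3.14 in OA-AP, with OA-AP 2 inside the control range. In an exact two-sided permutation test, which cannot give a p below 0.1 in either tissue, the p was 0.1 for Osmr to Lifr in both tissues and for Socs3 to Stat3 in adipose tissue. It was 0.2 for Il6ra to Il6st in both tissues and 0.3 for Socs3 to Stat3 in the pancreas. Adjusted over the 6 ratios, these exact p values became 0.2, 0.24 and 0.3.

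**Figure D4:**
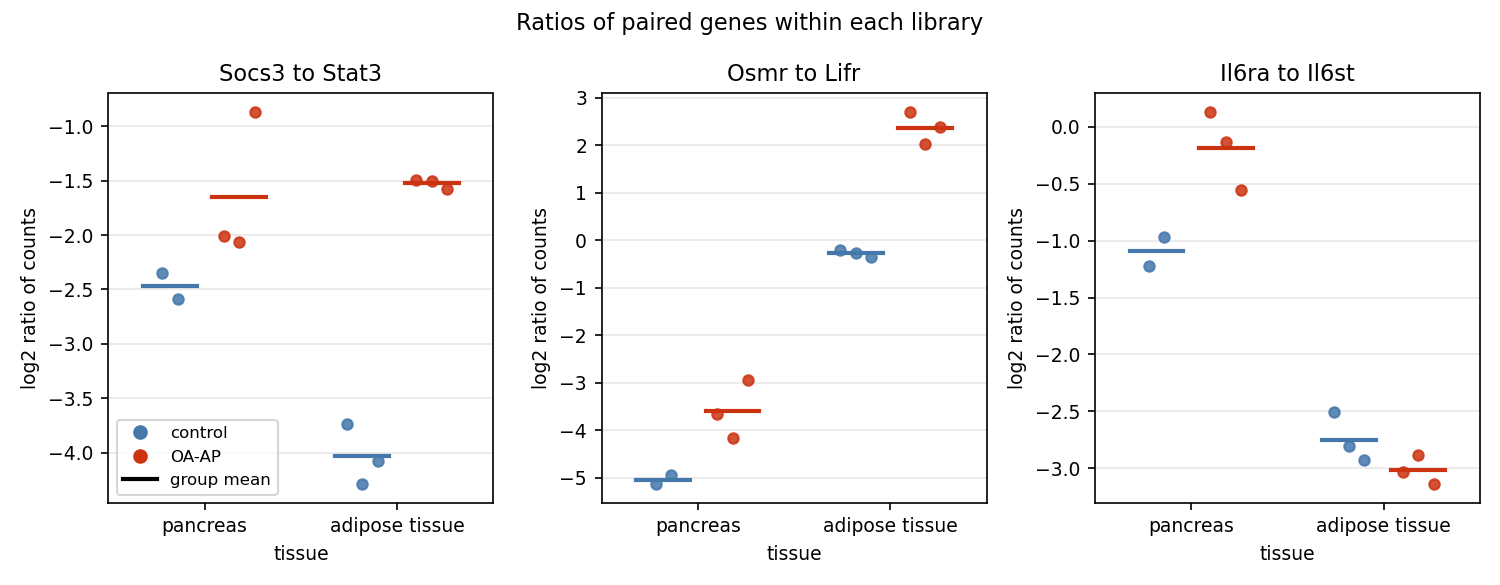
Log2 ratio of counts within each library for Socs3 to Stat3, Osmr to Lifr and Il6ra to Il6st, for control (blue) and OA-AP (red) in each tissue, with bars at group means. The Osmr to Lifr ratio lies below 0 in all adipose controls and between 2.03 and 2.70 in OA-AP adipose tissue, and below 0 in all pancreas libraries.

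The rest of the pathway was described with 7 lists of 78 genes. In the pancreas 33 of the 62 genes tested were higher and 6 lower (62.9% called, beside 29.8% of all genes), and in adipose tissue 28 of 68 were higher and 1 lower (42.6%, beside 25.1%). With 10 counts required in every library, 27 list genes were called in the pancreas and 27 in adipose tissue. With either pancreas control left out, 15 list genes were called there.

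Among the other gp130 cytokines, Clcf1, a cytokine that acts through the receptor chain Cntfr, rose in both tissues. It went from 9.14 ± 1.88 to 105 ± 68.7 CPM in adipose tissue (SD, n = 3 each; 11.5-fold, adjusted p = 0.00693) and from 1.09 ± 0.275 (n = 2) to 2.96 ± 0.605 CPM (n = 3) in the pancreas (2.69-fold, adjusted p = 0.0243). Cntfr itself rose 26.5-fold in adipose tissue (5.74 ± 1.49 to 153 ± 135 CPM, adjusted p = 0.00332) and 3.95-fold in the pancreas, where it stayed low (0.649 ± 0.0688 to 2.58 ± 0.591 CPM, adjusted p = 0.00969). Without OA-AP 2 the adipose log2 fold change of Cntfr fell from 4.73 to 3.70. With no filter on low counts Clcf1 missed the call in adipose tissue (log2 3.49, adjusted p = 0.0504). Both pancreas calls were lost with either control left out (adjusted p = 0.0694 to 0.163). Ctf1, which encodes cardiotrophin 1, was lower in OA-AP adipose tissue (5.87 ± 1.66 to 2.08 ± 0.745 CPM, log2 -1.50, adjusted p = 0.0111). Il11ra1, the IL-11 receptor chain, was not called in either tissue (log2 -0.22 in the pancreas and 0.05 in adipose tissue).

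Of the 11 signal transducers, 4 were higher and 1 lower in the pancreas and 2 were higher in adipose tissue. The called share was 45.5% in the pancreas, beside 29.8% of all genes tested there, and 18.2% in adipose tissue, beside 25.1%. Ptpn11, the phosphatase SHP2 that links gp130 to the MAP kinase branch, rose 1.95-fold in the pancreas (adjusted p = 0.00331), and not without control 1 (adjusted p = 0.0541). The kinase Jak2 was also called higher in the pancreas (1.86-fold, log2 0.90, adjusted p = 0.0147). The Jak2 call was lost with either control left out, at log2 fold changes of 0.89 (without control 1) and 0.91 (without control 2). Jak1 was under the fold limit there (1.48-fold, adjusted p = 0.00978). In adipose tissue Jak2 (1.62-fold, adjusted p = 0.00404) and Jak1 (1.57-fold, adjusted p = 0.00566) rose. The Jak1 call was lost without OA-AP 3 (adjusted p = 0.0207, under 1.5-fold), and both were lost with library totals.

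Of the 14 other signal inhibitors, 3 of 13 tested were higher in the pancreas and 6 of 14 in adipose tissue, and none was lower. The called share was 23.1% in the pancreas, beside 29.8% of all genes tested there, and 42.9% in adipose tissue, beside 25.1%. Ptpn2, a phosphatase that removes phosphate from JAK1 and STAT3, rose in both tissues, 4.90-fold in the pancreas (2.82 ± 0.744 to 13.9 ± 5.42 CPM, adjusted p = 0.00358) and 2.29-fold in adipose tissue (15.9 ± 1.30 to 36.4 ± 3.91 CPM, adjusted p = 0.000757). Socs2, which restrains growth hormone signalling, rose 3.04-fold in the pancreas (adjusted p = 0.00328). Without control 2 the pancreas p was 0.0567 for Ptpn2 and 0.0529 for Socs2 after adjustment. Ptpn1, a phosphatase of JAK2 and of the insulin receptor, rose 2.53-fold in adipose tissue (57.5 ± 4.44 to 146 ± 21.1 CPM, adjusted p = 0.000767).

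The 4 genes of receptor shedding, which release soluble IL-6 receptor, were all higher in the pancreas and none was called in adipose tissue. Among all genes tested, 29.8% were called in the pancreas and 25.1% in adipose tissue. Rhbdf2, a partner of the sheddase ADAM17, rose 6.66-fold in the pancreas (7.13 ± 1.07 to 47.6 ± 22.7 CPM, adjusted p = 0.00559), and its relative Rhbdf1 1.73-fold (adjusted p = 0.00558). The sheddases Adam17 and Adam10 rose 1.64-fold (adjusted p = 0.0166) and 1.66-fold (adjusted p = 0.0428). Without control 2 none of the 4 was called (adjusted p = 0.0615 to 0.140). Adam17 and Adam10 were also not called without control 1 (adjusted p = 0.128 and 0.247), nor Adam10 without OA-AP 1 (adjusted p = 0.0888). Without OA-AP 3 Adam10 was 0.44 higher on the log2 scale, under the fold limit. With all libraries kept, Adam10 also lost its call with DESeq2 size factors (adjusted p = 0.0582) and with TMM factors computed without acinar genes (adjusted p = 0.0560), so that 3 of the 4 were then higher. In adipose tissue their log2 fold changes were 0.13 to 0.31.

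Of 17 regulators known to be induced by STAT3, 9 were higher and 4 lower in the pancreas, and 11 were higher and none lower in adipose tissue. The called share was 76.5% in the pancreas, beside 29.8% of all genes tested there, and 64.7% in adipose tissue, beside 25.1%. Of all genes tested, 16.2% were called higher in the pancreas and 12.1% in adipose tissue. Junb, an AP-1 subunit, rose 30.4-fold in the pancreas (3.88 ± 0.151 to 118 ± 57.4 CPM, adjusted p = 0.00106) and 5.48-fold in adipose tissue (30.4 ± 0.914 to 167 ± 40.3 CPM, adjusted p = 0.000347). Timp1, an inhibitor of matrix metalloproteinases, rose 54.2-fold in adipose tissue (4.63 ± 0.746 to 252 ± 71.2 CPM, adjusted p = 0.000179). The 4 that were lower in the pancreas were Pim3 (log2 -1.87, adjusted p = 0.000263), Ccnd1 (-2.02, adjusted p = 0.00368), Myc (-0.74, adjusted p = 0.00652) and Irf1 (-0.92, adjusted p = 0.0294). In adipose tissue Pim3 (log2 0.59, adjusted p = 0.0219, at the fold limit) and Myc (log2 1.75, adjusted p = 0.00154) were higher in OA-AP, and Ccnd1 and Irf1 were not called. The adipose Pim3 call was lost without control 1, control 3 or OA-AP 3 (adjusted p = 0.0667, 0.0631 and 0.0587) and, under the fold limit, without OA-AP 1 (log2 0.45). It was also lost with library totals and with other filters on low counts. Pim3 encodes a survival kinase, Ccnd1 and Myc drive the cell cycle and Irf1 is an interferon response factor, and the last 3 were named after their values were seen. Ccnd1, Myc and Irf1 were not called without control 1 (adjusted p = 0.0634 to 0.183), Irf1 also not without control 2 (adjusted p = 0.117) or OA-AP 1 (adjusted p = 0.0924), and Myc and Irf1 not with library totals.

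Of 20 acute phase genes, 11 of 12 tested were higher in the pancreas and 7 of 14 in adipose tissue. The called share was 91.7% in the pancreas, beside 29.8% of all genes tested there, and 50.0% in adipose tissue, beside 25.1%. Some of these genes had 0 counts in both pancreas controls and passed the count filter only through OA-AP. Genes low in both groups were not tested, so the filter itself favours a high share in the pancreas. Lrg1, a secreted glycoprotein of the acute phase, rose 233-fold in the pancreas (7.71 ± 0.231 to 1797 ± 536 CPM, adjusted p = 3.12e-05) and 5.70-fold in adipose tissue (367 ± 87.0 to 2098 ± 564 CPM, adjusted p = 0.000997). Serpina3n, a serine protease inhibitor, went from 0.264 ± 0.233 to 81.1 ± 29.0 CPM in the pancreas (6 control counts in all, log2 8.16, SE 0.57, adjusted p = 0.000238) and from 481 ± 70.5 to 8062 ± 1079 CPM in adipose tissue (16.7-fold, adjusted p = 0.000179). Its pancreas log2 fold change was 9.57 without control 1 and 7.54 without control 2. Acute phase and STAT3-induced genes respond to other signals as well, so their counts are not a readout of IL-6 family signalling alone.

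**Figure D5:**
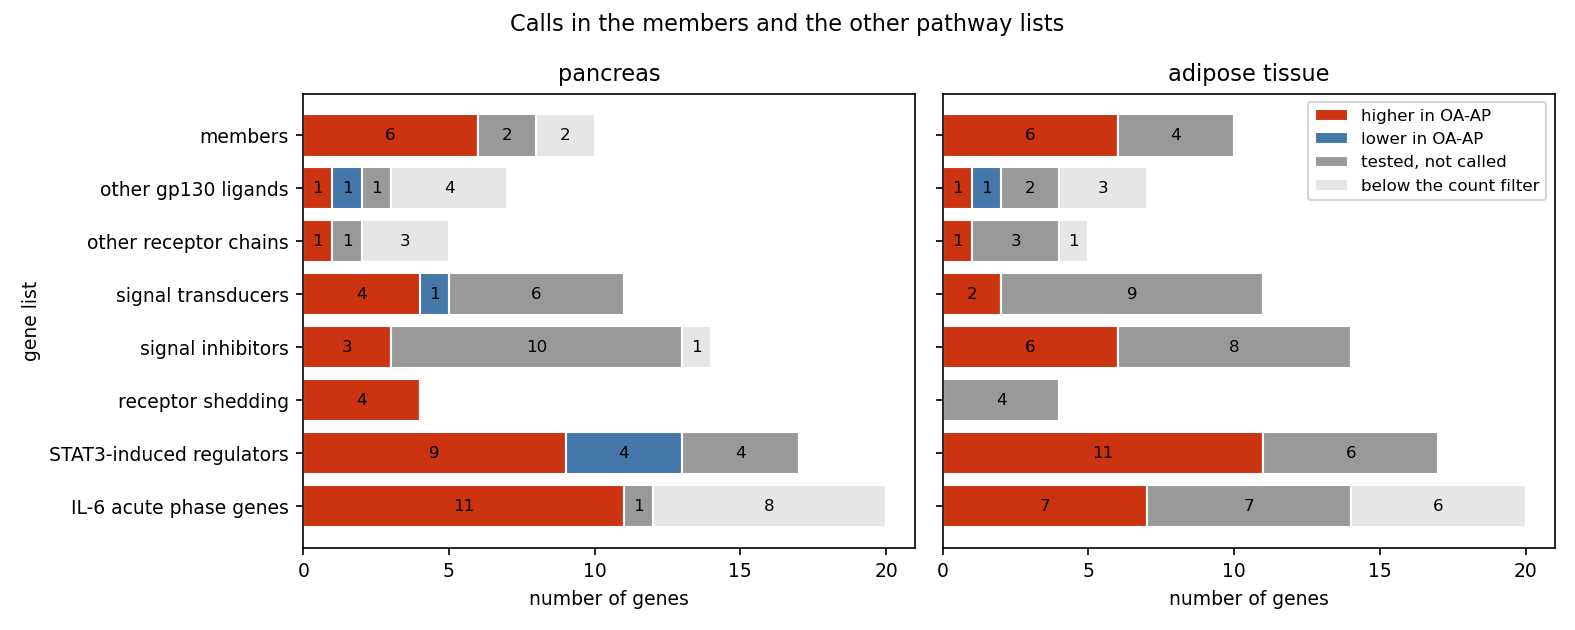
Number of genes in the members and in the 7 other pathway lists that were higher in OA-AP (red), lower in OA-AP (blue), tested and not called (dark grey) or below the count filter (light grey) in the pancreas (left) and adipose tissue (right). All 4 receptor shedding genes were higher in the pancreas and none in adipose tissue, while 11 of the 12 acute phase genes tested were higher in the pancreas. Some of those 12 passed the count filter only through OA-AP.

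The genes whose log2 CPM across the 11 libraries was most like that of Il6, among 17036 genes, were B4galt6 (Pearson r = 0.973), Cxcl2 (0.965) and Il1f9 (0.962). For Stat3 they were Lrg1 (0.984), Actg1 (0.981) and Myd88 (0.980). For Socs3 they were 1110038B12Rik, Hspb1 (both 0.980) and Plec (0.979). The libraries fall into 4 groups by tissue and condition, which these values share, so they are given as descriptions with no test.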

How the data were processed

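RNA-seq was made from the pancreas (2 control, 3 OA-AP) and epididymal adipose tissue (3 control, 3 OA-AP). The authors trimmed reads with Trim Galore 0.6.6, ran fastp 0.20.1, aligned to GRCm38 with STAR and counted reads per gene with featureCounts 2.0.1, and they deposited whole-number counts without normalization. The annotation release and strand setting are not given in the sources used here, so a gene and its antisense partner cannot be told apart. Gene lengths came from the pancreas table. Groups came from the labels.

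In R 4.3.3, each tissue was tested apart over all genes with edgeR 4.0.16 (filterByExpr, TMM, robust quasi-likelihood test, Benjamini-Hochberg), and the tissue by condition term in 1 fit of the 45260 shared genes. A call needed a 1.5-fold change and an adjusted p under 0.05. Standard errors are the log2 fold change over the square root of F. Log2 CPM for likeness used a prior count of 2, and ratios a prior count of 0.5 and an exact permutation test. Where a symbol had several identifiers, the one with the most counts was used. The scripts were tested on simulated counts. DESeq2 1.42.0, other scalings and filters, other fold limits, left-out libraries and a replicate block were alternatives. Counts of replicates differed beyond sampling noise (chi-square per degree of freedom of at least 6.91).

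The 10 members and all lists were chosen with earlier results of these data known. Named beyond the members were the 2 called genes of smallest p per list and tissue, any gene of lists with up to 7 genes, the 3 genes most like Il6, Stat3 and Socs3, and the most abundant marker of a list. Some list genes that met this rule are counted in their lists but not reported here by name. Deviations from the group mean had r of -0.163 to 0.0562 between same-numbered control and OA-AP libraries. Between same-numbered pancreas and adipose libraries r was -0.0115 to 0.0900. The deviations of the 2 pancreas controls mirror each other, and those within every group cancel out, so this check cannot decide whether the numbers mark pairs. The labels do not say so either, and the numbers were not used to pair samples. Promoter windows are from RefSeq on GRCm38.p6.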

Additional observations from a re-analysis of the deposited data

Results flagged for a closer look

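The change from control to OA-AP differed between the tissues for 4 members by the tissue by condition term of edgeR's fit over 11 libraries. Given as the adipose log2 fold change minus the pancreas one, the difference was -2.01 for Il6ra, -1.73 for Stat3, -1.27 for Lifr and -0.86 for Il6st. The Il6ra difference stayed between -2.12 and -1.90 with each library left out in turn, that of Stat3 between -1.90 and -1.48 and that of Lifr between -1.38 and -1.17, and these 3 were called each time. The Il6st difference lost its call in 8 of the 11 fits with a library left out. Pancreas markers of acinar cells, which took 81.9% and 83.4% of control counts and 65.5% to 68.1% of OA-AP counts, moved beside these differences, and their part was not tested.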

How the results depend on the processing

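The pancreas has 2 control libraries, and leaving out 1 rests the control level on a single library assumed to vary like the others. With each library left out in turn, 1495 to 4265 genes were called in the pancreas (3834 with all libraries), with 3 to 7 members and 15 to 41 pathway list genes. Genes with a tissue by condition difference then numbered 2332 to 3654 (3507 with all libraries). The log2 difference between tissues ranged from -5.08 to 2.67 for Il6, from -0.45 to 0.22 for Osmr and from -0.61 to 0.60 for Socs3, with Il6 turning sign without pancreas control 2 (0.33) or OA-AP 3 (2.67) and the other two without pancreas OA-AP 3. In adipose tissue Ccnd1 ranged from -0.33 (without OA-AP 3) to 0.43. With library totals in place of TMM factors, 6349 genes were called in the pancreas and 6527 in the tissue by condition term, and the median of all genes shifted by 0.71 in the pancreas and -0.15 in adipose tissue on the log2 scale. Of the calls, 92.0% were then higher in the pancreas (54.5% with TMM) and 32.1% in adipose tissue (48.1% with TMM), and all 6 called pancreas members were higher under both. The same setting turned the log2 fold changes of Il11ra1 (0.50) in the pancreas and of Il11ra1 (-0.10), Ptpn11 (-0.033) and Adam10 (-0.023) in adipose tissue, and called the Osmr difference between tissues (-1.01, adjusted p = 0.0448). A fold limit of 2 gave 2464 genes in the pancreas and 2228 in adipose tissue. Requiring 10 counts in every library left 7 adipose members tested and 3 called, since Il6, Osm and Il11 were filtered out. Replicate numbers are shared by name, and the labels do not say whether they mark pairs. Under a replicate block 4099 genes and 8 members were called in the pancreas and 3477 genes and 6 members in adipose tissue, while Adam10 in the pancreas (0.49) and Pim3 in adipose tissue (0.57) lost their calls. Pancreas OA-AP 3 has no control of its number, so under the block it adds nothing to the estimated pancreas changes. The pancreas log2 fold changes of Il6 and Lif, called under the block, were then 3.24 and 2.42. The tissue by condition term with the block called 2156 genes and gave 0.62 for Il6, and not every library correlated best with its own number. Other causes of these shifts were not tested. Depth limits the pancreas cytokines, with at most 3 counts in any control library.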
